A study of Homo sapiens with 6 samples.

Results

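In order to describe the extracellular matrix genes of HK-2 cells, 39 collagen, laminin and matrix glycoprotein genes were listed by symbol, and their rows were read from a table of raw read counts for 26899 genes. Of the 39 listed genes, 38 were analysed, and COL1A2 was not analysed here. The 38 members were divided into 15 basement membrane genes and 23 genes of the interstitial matrix, and both were compared between the libraries labelled ANXA2 knockdown and the libraries labelled control. HK-2 is an established human kidney proximal tubule line that was transformed with a human papillomavirus. Polyadenylated RNA was sequenced in 3 libraries of each group with a directional protocol. The labels of the first group gave wild type as the treatment and wrote shCtrl in a second field, whereas those of the second group gave ANXA2 knockdown, so whether the control cells carried a control hairpin is not settled. Plasmids were introduced by lipid transfection, and the labels gave no time after transfection and no clone.

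The basement membrane is a thin sheet beneath epithelia, in which a network of laminin trimers and a network of type IV collagen are linked by nidogens and heparan sulfate proteoglycans. The interstitial matrix lies beyond it and is built of fibrillar collagens, fibronectin, fibrillin microfibrils and proteoglycans, with matricellular proteins that modulate how cells attach. Tubule cells secrete their own basement membrane, and interstitial matrix accumulates in the fibrosing kidney. Annexin A2, the product of ANXA2, is a calcium-dependent phospholipid-binding protein of the membrane.

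The 6 libraries held 24231267 to 34561675 counted reads. The targeted gene checked the labels, and it was not lower in the libraries labelled knockdown beyond the spread of the libraries: ANXA2 was at 1539 ± 21.3 CPM (read counts scaled for library depth with the trimmed mean of M-values, TMM) against 1598 ± 119 in the libraries labelled control (mean ± SD, n = 3 each). Its log2 fold change was −0.05 with a 95% interval from −0.22 to 0.11 (edgeR quasi-likelihood test, adjusted p = 0.848). The groups are therefore named by their labels only. A list of 9 type I interferon genes, chosen because earlier results of these data showed it to separate the labels, had summed levels of 348 to 708 CPM under the knockdown label and 150.0 to 205 CPM under the control label. None of its genes passed an adjusted p of 0.05 (edgeR, lowest adjusted p = 0.156), and its part in the values below was not tested. Of the epithelial and tubule markers, keratin genes, PAX8 and the brush border enzyme gene GGT1 (5406 to 9247 reads) were present, whereas the brush border genes CUBN, LRP2, ANPEP and SLC34A1 and the epithelial cadherin gene CDH1 had 0 to 22 reads in any library. The analysed endothelial markers CDH5, PECAM1 and TEK had 0 to 13 reads, and the leukocyte markers CD14 and CD68 summed to 2.72 to 6.27 CPM. Of the fibroblast and pericyte list, DCN and PDGFRB had 0 to 23 reads, whereas LUM had 663 to 789 and RGS5 had 1275 to 2025. THY1 had 34 to 81 reads and ACTA2 had 34 to 82. ACTA2 was at 1.16 to 1.57 CPM under the control label and 1.66 to 2.48 under the knockdown label, without overlap (edgeR adjusted p = 0.637). Of the 5 tested genes of this list, only ACTA2 had an estimate above 0, and 4 lay below. The summed level of the 6 analysed genes was 68.0 to 75.2 CPM in the libraries labelled knockdown and 66.5 to 93.5 CPM in those labelled control.

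The matrix transcripts were first ordered by level, for which the deposited FPKM (fragments scaled to transcript length and depth) was used, since counts cannot be compared between genes of different length. The interstitial side was dominated by glycoproteins and not by fibrillar collagens. TGFBI, an adhesion protein induced by TGF-beta, had the highest mean level of all members, 514 FPKM under the knockdown label and 594 under the control label. FN1, which encodes fibronectin, followed at 343 and 413 FPKM, the collagen cross-linking enzyme LOXL2 at 306 and 288 FPKM, and the collagen-binding matricellular protein SPARC at 268 and 250 FPKM. These 4 genes made up 89.3% to 90.8% of the summed FPKM of the interstitial members in every library. The order of FN1, LOXL2 and SPARC was not the same in every library, since FN1 had 260 FPKM in the third library labelled knockdown, below LOXL2 at 266 and SPARC at 279.

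On the basement membrane side the type IV collagen chains stood highest. COL4A2 had 156 and 148 FPKM under the knockdown and control labels, COL4A1 had 92.4 and 94.9, and the heparan sulfate proteoglycan gene AGRN had 73.7 and 66.9. Together COL4A1 and COL4A2 made up 41.6% to 47.4% of the summed FPKM of the basement membrane members. LAMC1, the gamma chain shared by most laminins, had 58.7 and 62.0 FPKM, COL18A1 had 56.9 and 44.6, and LAMB1 had 40.5 and 39.4. The order of AGRN and LAMC1 was turned in 1 library, since AGRN had 62.1 FPKM and LAMC1 had 72.6 in the second library labelled control. The classical fibrillar collagens were near the floor. COL1A1 had 1.09 and 1.21 FPKM, COL5A1 had 0.53 and 0.72, and COL3A1 had 4 reads in all 6 libraries together. The summed FPKM of the basement membrane members was 0.281 to 0.343 of the interstitial sum under the control label and 0.343 to 0.384 under the knockdown label. In a bulk sample, fewer cells expressing a gene and less RNA of that gene per cell cannot be told apart.

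**Figure D1:**
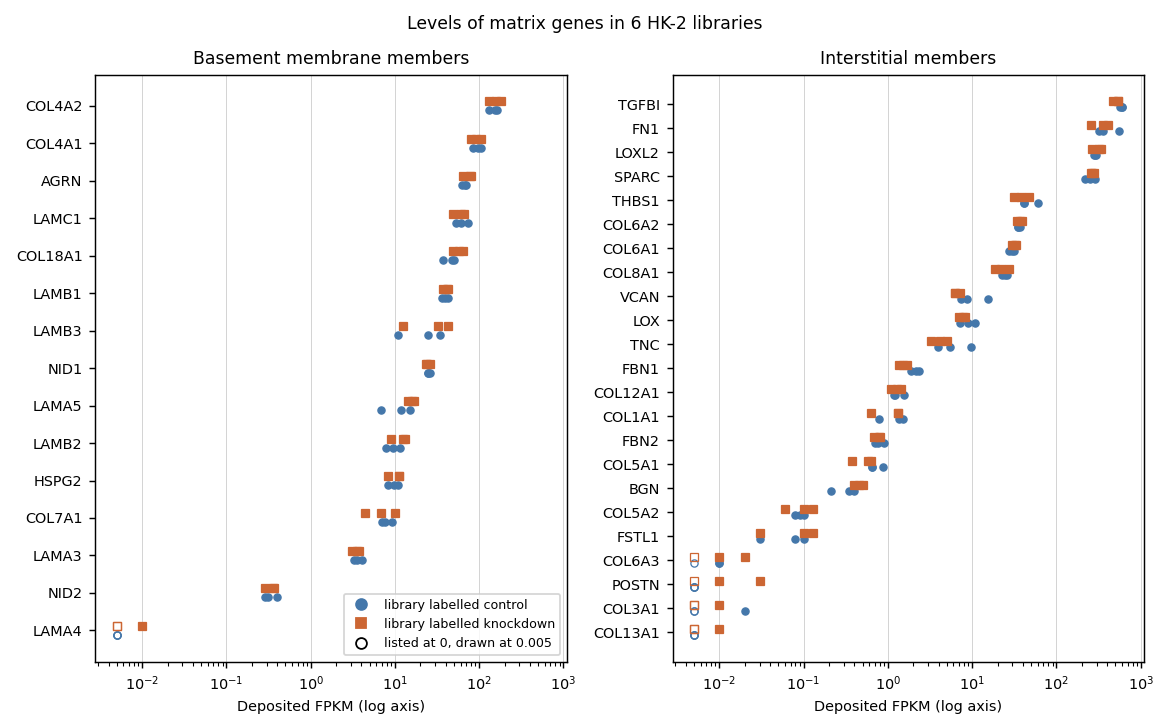
Deposited FPKM of the 38 analysed members on a log axis, basement membrane genes on the left and interstitial genes on the right, with 1 point for each library and open points for values listed at 0. TGFBI, FN1, LOXL2 and SPARC stand above the other interstitial genes, COL4A2 and COL4A1 lead the basement membrane genes, and 5 genes lie at or near 0.

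The members were then tested between the labels. Of the 38 members, 33 passed the filter on low counts, 14 of the basement membrane and 19 of the interstitial matrix. LAMA4, COL13A1, COL3A1, COL6A3 and POSTN did not pass, with 0 to 8 reads in any library. None of the 33 passed an adjusted p of 0.05 (edgeR), and the lowest adjusted p of a member was 0.599. Across all 15299 tested genes 0 genes (0.0%) passed, with a lowest adjusted p of 0.131, whereas 1251 genes had an unadjusted p under 0.05. DESeq2 called 31 genes and limma-voom 0, and neither called a member. At an unadjusted p under 0.05, 1 member of 33 (3.03%) was higher in the libraries labelled knockdown, beside 3.86% of all tested genes, and 3 members (9.09%) were lower, beside 4.32%. The groups did not overlap for 3 members (9.09%) in the lower direction, beside 7.7% of all tested genes, and for 0 members in the higher direction, beside 7.94%. The count of 3 members is close to the share over all genes for the overlap and rests on few genes for the unadjusted p.

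The compartments were then read apart. Of the 14 basement membrane members, 9 had an estimate above 0, and their median log2 fold change was 0.07. Of the 19 interstitial members, 7 had an estimate above 0, with a median of −0.09, against −0.01 over all tested genes, of which 48.99% were above 0. No test was made of these medians. The interstitial median was 0.02 without the third library labelled knockdown. COL7A1 was counted with the basement membrane and COL8A1 and COL13A1 with the interstitial matrix, although their place can be argued, and the other assignment gave medians of 0.07 and −0.13. For 26 of 33 members (78.8%, beside 73.68% of all tested genes) the 95% interval of the fold change lay within a 2-fold change in either direction, so for these genes a larger difference between the labels lay outside the interval. For 17 of 33 members, beside 7365 of 15299 tested genes, it lay within a 1.5-fold change.

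**Figure D2:**
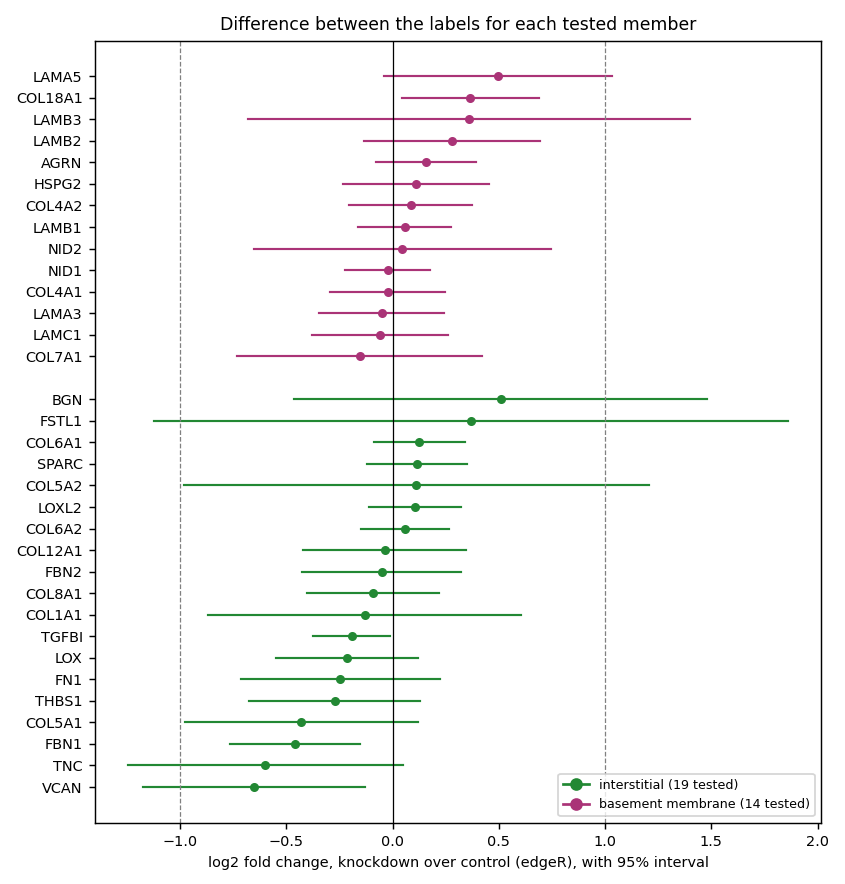
Log2 fold change of the 33 tested members, libraries labelled knockdown over libraries labelled control, with the 95% interval from edgeR, and dashed lines at a 2-fold change. The intervals of VCAN, FBN1, TGFBI and COL18A1 leave out 0 before adjustment, the estimates of 9 of 14 basement membrane genes and 7 of 19 interstitial genes lie above 0, and the intervals of 7 members, FSTL1, BGN, COL5A2, LAMB3, TNC, VCAN and LAMA5, reach past a 2-fold change.

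Among the basement membrane collagens, COL4A1 and COL4A2 encode the alpha chains of the type IV collagen network found in most basement membranes. They were read at nearly the same relative level in each library. COL4A1 (ENSG00000187498.14, GRCh38 chromosome 13, bases 110148963 to 110307157, minus strand) had 828, 649 and 758 CPM in the libraries labelled control and 739, 826 and 632 CPM in those labelled knockdown. COL4A2 (ENSG00000134871.17, GRCh38 chromosome 13, bases 110305812 to 110513209, plus strand) had 1081, 854 and 1012 CPM against 1052, 1201 and 871 CPM. The second library labelled control and the third labelled knockdown were lowest for both genes, and the groups overlapped. The log2 fold changes were −0.02 (95% interval −0.30 to 0.25, edgeR adjusted p = 0.964) for COL4A1 and 0.08 (−0.20 to 0.37, adjusted p = 0.863) for COL4A2. Either sign turned when single libraries were left out, between −0.12 and 0.07 for COL4A1 and between −0.03 and 0.20 for COL4A2.

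In RefSeq (GRCh38.p14) the genes lie head to head on opposite strands, with 126 bases between the start sites. GENCODE 44 starts COL4A2 further upstream, so that on the coordinates above the genes overlap and the stretch lies inside COL4A2, outside annotated exons. It is shown because it lies between the RefSeq start sites of both genes, whose levels were read together above. It is written 5′ to 3′ on the strand of COL4A2, at chr13:110307158-110307257 in GRCh38.p14, and ends 26 bases before the COL4A2 start site. The capitals mark a CCAAT and a GGGCGG.
COL4A1 and COL4A2 shared stretch: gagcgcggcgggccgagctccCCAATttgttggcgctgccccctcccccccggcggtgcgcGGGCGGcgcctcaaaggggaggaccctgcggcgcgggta
The TATA box letters TATAAA, the CAAT box letters CCAAT, the GC box letters GGGCGG and the AP-1 motif TGANTCA were searched on both strands, and none of them contains another. In the 100 bases directly before the start site, 18.1% of 35116 RefSeq promoters held a CCAAT and 31.3% a GGGCGG, so both were common there. That window has the length of the printed stretch but lies closer to the start site, so the shares are only a rough guide. Neither the TATA box nor the AP-1 motif was found in the printed stretch. A match of letters is a description and not a bound site.

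COL18A1 (ENSG00000182871.14, GRCh38 chromosome 21, bases 45405165 to 45513720, plus strand) encodes the basement membrane collagen from which endostatin is cleaved, and it was the 1 member with an unadjusted p under 0.05 in the higher direction. It had 361, 262 and 341 CPM in the libraries labelled control and 422, 469 and 350.2 CPM in those labelled knockdown. The first library labelled control lay above the third labelled knockdown, so the groups overlapped. Its log2 fold change was 0.36 (95% interval 0.04 to 0.69, edgeR p = 0.031, adjusted p = 0.605), and an exact two-sided permutation test gave p = 0.2. The log2 fold change was 0.24 without the second library labelled control, 0.27 without the second labelled knockdown and 0.35 without the first labelled knockdown. In each of these fits the unadjusted p (edgeR) was above 0.05. Of the exon bases of COL18A1, 18.5% lie opposite exons of SLC19A1, and whether the counting used strand is not stated, so reads of the opposite gene cannot be told apart there. COL7A1, the collagen of anchoring fibrils, ran from 43.0 CPM in the third library labelled knockdown to 99.7 CPM in the second one, and its log2 fold change was −0.15 (−0.73 to 0.42).

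The laminin chains assemble into trimers of 1 alpha, 1 beta and 1 gamma chain, of which LAMA5 is an alpha chain of mature tubule basement membranes and LAMA3 the alpha chain of laminin-332 in epithelia. LAMA5 had the largest estimate of the basement membrane members. Its levels were 182, 82.0 and 143 CPM in the libraries labelled control and 208, 192 and 172 CPM in those labelled knockdown. One library, the second labelled control, stood far below the other 5, while the first one lay above the third labelled knockdown. For LAMA5 the log2 fold change was 0.49 (95% interval −0.04 to 1.03, edgeR adjusted p = 0.615), 0.24 without the second library labelled control and 0.77 without the first.

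LAMB3, the beta chain of laminin-332, varied most within the groups among the named genes of the basement membrane. It had 51.9, 114 and 162 CPM in the libraries labelled control and 155, 207 and 59.0 CPM in those labelled knockdown. The first library labelled control and the third labelled knockdown were low by a similar amount, and the log2 fold change was 0.36 with a wide interval from −0.68 to 1.40 (edgeR adjusted p = 0.836). It was −0.03 without the second library labelled knockdown. LAMB2, the beta chain of laminins in the glomerulus and at the synapse, had 70.4, 46.9 and 57.5 CPM against 76.7, 81.1 and 54.4 CPM, which overlapped (log2 fold change 0.28, −0.13 to 0.69, edgeR adjusted p = 0.686). This was 0.15 without the second library labelled control and 0.17 without the second labelled knockdown, and 0.44 without the first labelled control or the third labelled knockdown.

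LAMC1 had 443, 597 and 504 CPM in the libraries labelled control and 511, 563 and 406 CPM in those labelled knockdown. The groups spanned nearly the same range, and the log2 fold change was −0.06 (−0.38 to 0.26, edgeR adjusted p = 0.916). LAMB1, its usual beta partner, had a log2 fold change of 0.06 (−0.16 to 0.27), and LAMA3 one of −0.05 (−0.35 to 0.24). LAMA4, an alpha chain of vascular and mesenchymal laminins, had 3 reads in all.

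The genes that link both networks had log2 fold changes between −0.02 and 0.16. AGRN, which encodes agrin, had 550.1, 479 and 535 CPM in the libraries labelled control and 616, 624 and 502 CPM in those labelled knockdown, with the third library labelled knockdown inside the range of the other group. For AGRN the log2 fold change was 0.16 (−0.08 to 0.39, edgeR adjusted p = 0.689), 0.10 without the second library labelled control and 0.25 without the third labelled knockdown. HSPG2, the gene of the proteoglycan perlecan, had a log2 fold change of 0.11 (−0.23 to 0.45), and 11.7% of its exon bases lie opposite exons of LDLRAD2. NID1, which encodes nidogen-1 and ties laminin to type IV collagen, was the steadiest member, with a 1.11-fold span over the 6 libraries and a log2 fold change of −0.02 (−0.22 to 0.18). NID2, its paralogue, was at 1.54 to 2.13 CPM (log2 fold change 0.05, −0.65 to 0.75), and 30.7% of its exon bases lie opposite exons of RTRAF.

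The interstitial members held the 3 genes whose groups did not overlap, all lower in the libraries labelled knockdown. They were 15.8% of the 19 tested interstitial members, beside 7.7% of all tested genes, a share that rests on few genes and was not tested. FBN1 (ENSG00000166147.13, GRCh38 chromosome 15, bases 48408313 to 48645721, minus strand) encodes fibrillin-1, the backbone of microfibrils. It had 35.2, 38.0 and 30.2 CPM in the libraries labelled control and 28.0, 22.35 and 24.8 CPM in those labelled knockdown. The closest libraries were the third labelled control and the first labelled knockdown. For FBN1 the log2 fold change was −0.46 (95% interval −0.77 to −0.15, p = 0.00785, adjusted p = 0.599, edgeR), and an exact two-sided permutation test gave p = 0.1, the smallest value that 3 against 3 libraries allow. FBN1 kept an unadjusted p under 0.05 in all 15 other fits, with log2 estimates between −0.55 and −0.30. FBN2, the fibrillin of developing tissue, had a log2 fold change of −0.05 (−0.43 to 0.32).

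VCAN (ENSG00000038427.15, GRCh38 chromosome 5, bases 83471618 to 83582303, plus strand) encodes versican, a large chondroitin sulfate proteoglycan that binds hyaluronan. Its levels were 120.2, 209.6 and 104 CPM in the libraries labelled control and 87.5, 102 and 86.6 CPM in those labelled knockdown. The second library labelled control stood far above the rest, and the third lay just above the highest library labelled knockdown. Its log2 fold change was −0.65 (−1.17 to −0.13, edgeR p = 0.0197, adjusted p = 0.599, exact permutation p = 0.1), and −0.28 without the second library labelled control. TGFBI (ENSG00000120708.16, GRCh38 chromosome 5, bases 136028988 to 136063818, plus strand) had 1742, 1819 and 1839 CPM in the libraries labelled control and 1650.3, 1663 and 1414 CPM in those labelled knockdown. The groups did not overlap, and the third library labelled knockdown was lowest. The log2 fold change was −0.19 (−0.37 to −0.01, p = 0.0401, adjusted p = 0.605, edgeR; exact permutation p = 0.1), which is a fold of 0.875, and it was −0.12 without the third library labelled knockdown.

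The bases before the start sites of these 3 genes are shown because their groups did not overlap in the same direction. They were taken from RefSeq (GRCh38.p14), where a window was found for 31 of the 38 members, and only bases outside exons of GENCODE 44 are printed, 5′ to 3′ on the strand of the gene. GENCODE 44 starts FBN1 and VCAN further upstream than RefSeq. The FBN1 stretch therefore lies before the RefSeq start site but inside the GENCODE gene. The VCAN stretch ends directly before the GENCODE start at base 83471618. The capitals mark GGGCGG or its reverse complement.
TGFBI, chr5:136028738-136028987, plus strand: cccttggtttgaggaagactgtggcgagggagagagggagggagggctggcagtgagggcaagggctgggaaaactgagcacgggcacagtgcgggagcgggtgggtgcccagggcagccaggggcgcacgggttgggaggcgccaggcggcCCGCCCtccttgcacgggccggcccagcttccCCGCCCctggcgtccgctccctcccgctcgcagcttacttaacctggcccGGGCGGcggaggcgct
VCAN, chr5:83471494-83471617, plus strand: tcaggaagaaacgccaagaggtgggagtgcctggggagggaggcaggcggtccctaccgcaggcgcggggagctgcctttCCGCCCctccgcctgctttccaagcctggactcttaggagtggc
FBN1, chr15:48644971-48645220, minus strand: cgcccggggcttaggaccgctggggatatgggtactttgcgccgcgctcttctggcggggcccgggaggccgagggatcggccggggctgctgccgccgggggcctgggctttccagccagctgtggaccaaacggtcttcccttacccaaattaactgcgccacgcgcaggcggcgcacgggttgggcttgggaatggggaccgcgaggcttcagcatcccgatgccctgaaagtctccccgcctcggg
The TGFBI stretch held 3 matches, the VCAN stretch 1 and the FBN1 stretch 0. In the 250 bases before the start site, 42.6% of all promoters held a GGGCGG, and in the last 124 bases 34.4%. The VCAN stretch also has 124 bases but ends 126 bases before its RefSeq start site, so the 34.4% belongs to another window. None of the other motifs named above was found in the 3 stretches.

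FN1 is assembled into fibrils by cells and carries the RGD site that integrins bind. It was the member with the most reads, at 3128, 5258 and 3459 CPM in the libraries labelled control and 3515, 3967 and 2499.7 CPM in those labelled knockdown. The second library labelled control was the highest by a wide margin, and the groups overlapped. For FN1 the log2 fold change was −0.25 (−0.72 to 0.22, edgeR adjusted p = 0.741), and 0.02 without that library. TNC, which encodes the anti-adhesive glycoprotein tenascin-C, had 38.2, 90.1 and 52.6 CPM against 40.5, 48.4 and 30.7 CPM. As for FN1 and VCAN, the highest library was the second labelled control. The log2 fold change was −0.60 (−1.24 to 0.05, edgeR adjusted p = 0.615), and −0.19 without that library.

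SPARC had 1119, 837 and 970.0 CPM in the libraries labelled control and 1032, 1041 and 1092 CPM in those labelled knockdown, so that the latter lay within the range of the former. Its log2 fold change was 0.11 (−0.12 to 0.35, edgeR adjusted p = 0.763), 0.016 without the second library labelled control and 0.22 without the first. THBS1, which encodes the TGF-beta activator thrombospondin-1, ran from 264 CPM in the second library labelled knockdown to 496 CPM in the first labelled control (log2 fold change −0.27, −0.68 to 0.13). BGN and FSTL1, which encode biglycan and follistatin-like 1, had mean levels of 0.987 and 0.499 CPM, and their log2 fold changes of 0.51 (−0.46 to 1.48) and 0.37 (−1.13 to 1.86) were poorly determined. POSTN, which encodes periostin, had 5 reads in all, and all of them were in libraries labelled knockdown.

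Among the interstitial collagens, COL6A1 and COL6A2 of the beaded microfibrils were the highest, at 31.9 and 36.7 FPKM under the knockdown label and 29.6 and 35.6 FPKM under the control label. COL6A1 had a log2 fold change of 0.13 (−0.09 to 0.34) and COL6A2 one of 0.06 (−0.15 to 0.27). COL6A3, the third chain of the classical type VI trimer, had 16 reads in all. COL5A1, a chain of the collagen that nucleates type I fibrils, had 7.87, 5.78 and 5.91 CPM in the libraries labelled control and 3.52, 5.78 and 5.20 CPM in those labelled knockdown. Only the first library labelled control and the first labelled knockdown stood apart from the rest, and the log2 fold change was −0.43 (−0.98 to 0.12, edgeR adjusted p = 0.643). Without the first library labelled knockdown it was −0.24, and without the first labelled control −0.27. COL1A1 had a log2 fold change of −0.13 (−0.87 to 0.61) and COL12A1, a collagen on the surface of fibrils, one of −0.04 (−0.42 to 0.35). COL8A1, a short-chain collagen, had one of −0.09 (−0.40 to 0.22).

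Of the enzymes that oxidise lysines for cross-links, LOXL2 had 1093, 1042.5 and 1092.5 CPM in the libraries labelled control and 1200.5, 1272.5 and 995 CPM in those labelled knockdown. The libraries labelled control were nearly equal and lay inside the range of the other group. The log2 fold change was 0.10 (−0.11 to 0.32, edgeR adjusted p = 0.765), 0.033 without the second library labelled knockdown and 0.20 without the third. LOX had 41.5 CPM on average under the knockdown label and 48.2 under the control label, with a log2 fold change of −0.22 (−0.55 to 0.12).

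**Figure D3:**
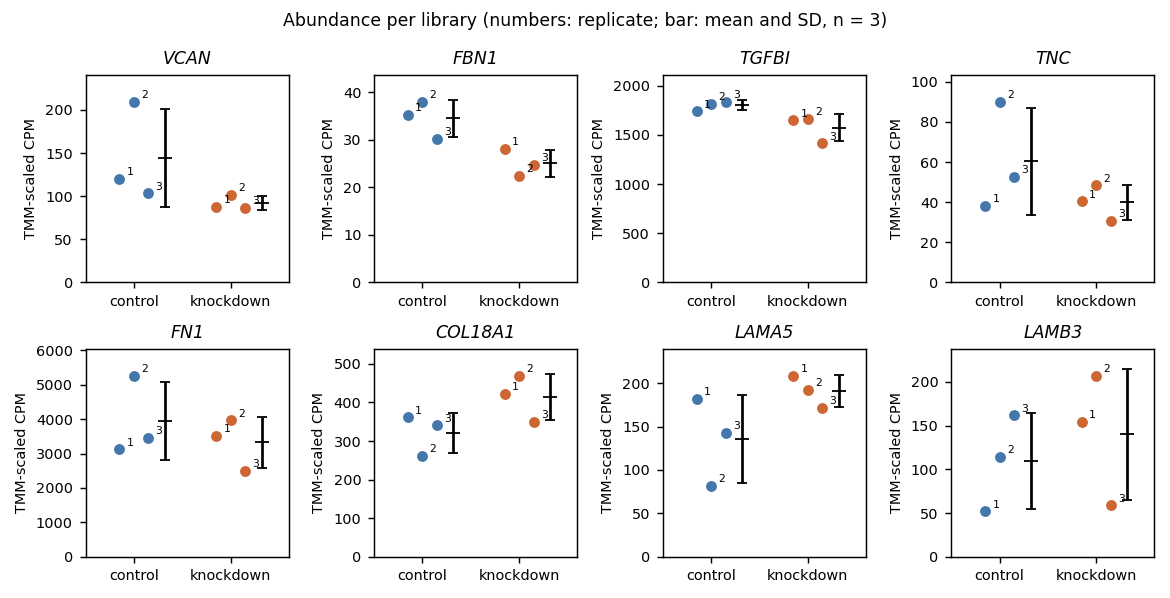
TMM-scaled CPM of 8 members in the 3 libraries of each label, numbered by replicate, with the mean and SD of 3 libraries beside them and axes that start at 0. The second library labelled control stands above the rest for VCAN, TNC and FN1 and below the rest for LAMA5, and only VCAN, FBN1 and TGFBI have groups that do not overlap.

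The balance of chains of 1 protein or 1 family was then compared, since a ratio of FPKM within a library does not depend on its depth. NID2 and NID1 are paralogues and LAMB2 and LAMB1 are alternative beta chains, so these pairs are not chains of 1 protein. In all, 9 ratios were computed. The ratio of COL4A1 to COL4A2 was 0.646, 0.642 and 0.632 in the libraries labelled control and 0.593, 0.581 and 0.612 in those labelled knockdown. It spanned only 1.11-fold over the 6 libraries, although either gene alone spanned 1.31-fold and 1.41-fold. It was the 1 ratio of 9 whose groups did not overlap, with means of 0.595 ± 0.0159 and 0.640 ± 0.00722 (SD, n = 3). The exact two-sided permutation p was 0.1, the smallest possible, before any adjustment over the 9 ratios. The ratio of COL6A2 to COL6A1 was likewise steady, between 1.10 and 1.27, and that of NID2 to NID1 lay between 0.0117 and 0.0162.

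The laminin ratios overlapped between the labels and varied between libraries of the same label. LAMB3 to LAMA3 ran from 2.67 in the first library labelled control to 12.3 in the second labelled knockdown, a 4.62-fold span. LAMA5 to LAMC1 ran from 0.0949 in the second library labelled control to 0.292 in the third labelled knockdown. LAMB2 to LAMB1 lay between 0.183 and 0.321, and LAMB1 to LAMC1 between 0.589 and 0.768. COL5A2 to COL5A1 lay between 0.0952 and 0.263 and rested on 124 reads of COL5A2 in all.

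**Figure D4:**
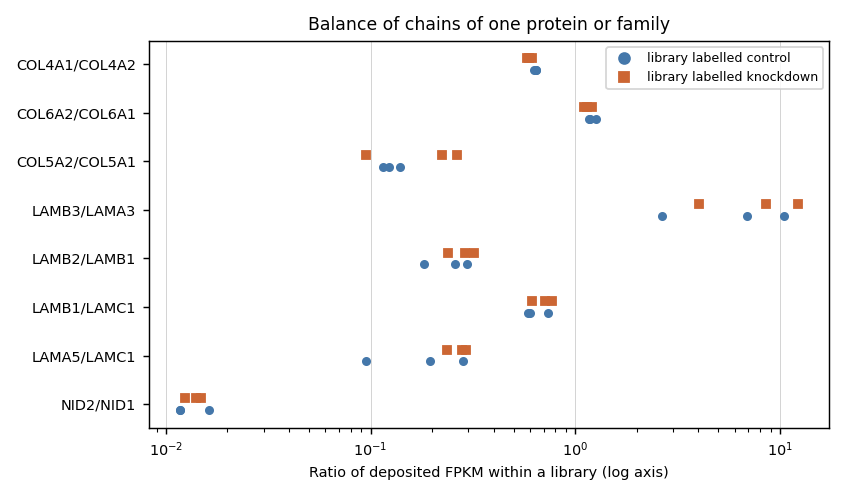
Ratio of the FPKM of 8 pairs of chains or paralogues within each library, on a log axis. Circles are libraries labelled control and squares are libraries labelled knockdown. COL4A1 to COL4A2 and COL6A2 to COL6A1 are narrow, and LAMB3 to LAMA3 and LAMA5 to LAMC1 are wide. The ratio of COL6A3 to COL6A1 is left out because it was 0 in the second library labelled control and the first labelled knockdown.

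The members were last compared by library, since no batch was given in the labels. The third library labelled knockdown had the lowest level for 15 of the 33 tested members (45.5%), beside 19.8% of all tested genes. The second library labelled knockdown had the highest level for 10 members (30.3%), beside 14.3% of all tested genes. The mean of log2(CPM + 0.5) over the 14 tested basement membrane members was 7.24, 7.10 and 7.23 in the libraries labelled control and 7.39, 7.47 and 7.03 in those labelled knockdown, so the latter group held both the highest and the lowest library. Over the 19 interstitial members it was 5.84, 5.81 and 5.80 against 5.71, 5.80 and 5.59. The median ratio of the highest to the lowest library was 1.46 over the 30 tested members with a mean of at least 1 CPM, beside 1.48 over all such genes.

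**Figure D5:**
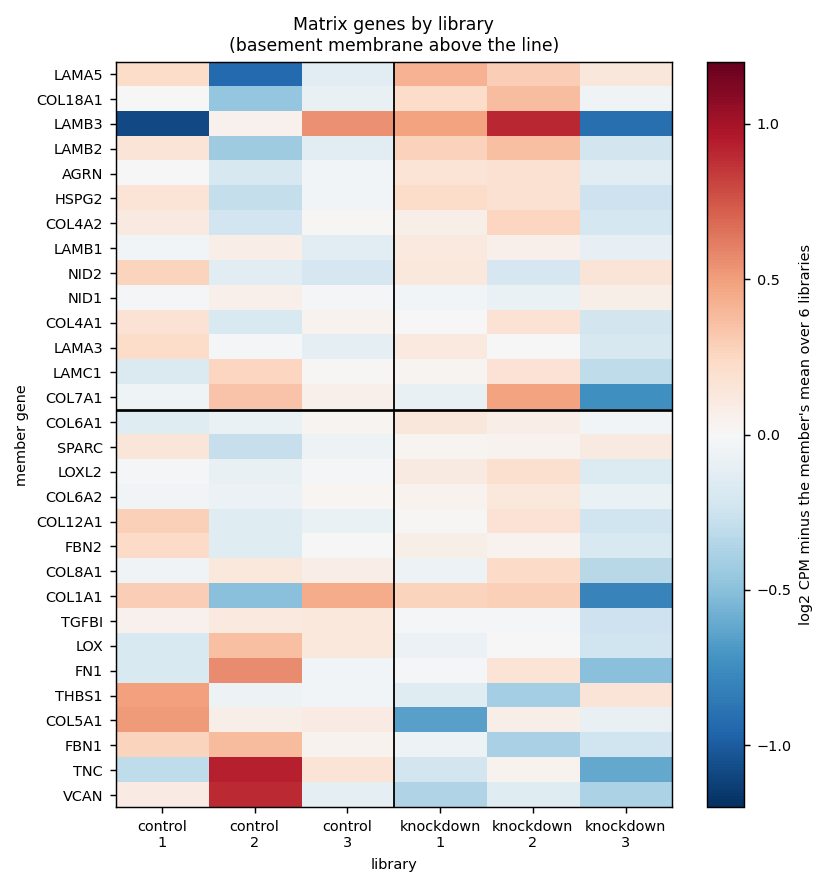
Log2 CPM of the 30 tested members with a mean of at least 1 CPM in each library, minus the mean of the member over the 6 libraries, with basement membrane genes above the line. The third library labelled knockdown is below the mean for most members, the second library labelled control is high for VCAN, TNC and FN1, and LAMB3 is low in the first library labelled control and the third labelled knockdown.

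Other components of the same compartments, which are no members, were counted beside them. Of 22 listed basement membrane components 16 were tested, 10 with an estimate above 0 and 6 below, and none passed an adjusted p of 0.05 (edgeR). The laminin receptor gene DAG1 had a log2 fold change of 0.14 (SE 0.0969, adjusted p = 0.693, edgeR). Of 38 listed interstitial components 27 were tested, 18 with an estimate above 0 and 9 below, and none passed. MFAP3, which encodes a microfibril-associated protein, had 10.2, 9.79 and 10.2 CPM in the libraries labelled control and 7.39, 6.88 and 5.37 CPM in those labelled knockdown (log2 fold change −0.62, SE 0.177, adjusted p = 0.599, edgeR). THBS3, a thrombospondin, had 66.3, 61.5 and 70.4 CPM against 89.8, 102.8 and 70.1 CPM, which overlapped (log2 fold change 0.41, SE 0.142, adjusted p = 0.599, edgeR). Among the interstitial members, by contrast, 12 of 19 estimates lay below 0, and the difference between the lists was not tested.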

How the data were processed

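Total RNA of HK-2 cells was enriched for polyadenylated transcripts and sequenced in 6 libraries. The authors deposited raw read counts per gene, not normalised, for 26899 genes. The authors also deposited FPKM values for 26803 genes, which were a rescaling of the same counts and were used for levels between genes and for 2 alternative fits. The submitters' processing notes name bcl2fastq, TopHat2, edgeR and GRCh38, without roles. The sources used here give no counting program, annotation release or strand setting. Coordinates are those of GENCODE 44 on GRCh38, in which 97.12% of the identifiers were found.

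Counts were tested with edgeR 4.0.16 in R 4.3.3 (quasi-likelihood, TMM, default low-count filter with a minimum count of 10 and a total of 15, no covariates, two-sided). The p-values were adjusted by the Benjamini-Hochberg method over all 15299 tested genes, with a threshold of 0.05. The test was checked on simulated data in which every gene had the same dispersion (spread beyond counting noise). That check does not measure the power of the test in these libraries. CPM are counts scaled to the reads in tested genes times the TMM factor. Intervals are 95%. Alternatives used other scalings, no filter, DESeq2 1.42.0, limma 3.58.1, a replicate block and leaving out each library. The labels do not say that libraries came from separate cultures, so p-values measure only the spread between these libraries.

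The members and lists were chosen with earlier results of these data known. Values per library are given for the 4 members of each compartment with the largest absolute log2 fold change at a mean of at least 1 CPM, for the 4 with the highest mean FPKM, and for members with groups that do not overlap and an unadjusted p under 0.05. For the other lists, the 2 genes with the smallest p are named, except that 1 result is not reported here.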

Additional observations from a re-analysis of the deposited data

How the results depend on the processing

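Each of the 16 members with values per library was refitted under 15 alternatives, which gave 240 estimates. Of these, 229 kept their direction and their side of an adjusted p of 0.05, 3 passed that threshold and 8 changed sign. The 3 came from the fit without a low-count filter, in which 165 genes of all and 3 members passed: VCAN (log2 fold change −0.65, adjusted p = 8.016e-05), TNC (−0.60, adjusted p = 0.0048) and LAMA5 (0.50, adjusted p = 0.00898), whose adjusted p reached 0.988 under other alternatives. The count of all genes past the threshold was 31 with DESeq2 and ranged from 0 to 4 when 1 library was left out, with 4 without the second library labelled knockdown, whereas edgeR with all libraries and the low-count filter gave 0. The cause was not tested.

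The changes of sign came from leaving out 1 library, with log2 fold changes from −0.12 to 0.073 for COL4A1 (highest without the third library labelled knockdown, and 0.060 without the first labelled control), from −0.027 to 0.20 for COL4A2 (lowest without the second labelled knockdown, and −0.0050 without the second labelled control), from −0.39 to 0.017 for FN1 (highest without the second labelled control), from −0.028 to 0.76 for LAMB3 (lowest without the second labelled knockdown) and from −0.16 to 0.063 for LAMC1 (highest without the third labelled knockdown, and 0.061 without the second labelled control). When 1 library was left out, the median of the interstitial members ranged from −0.14 to 0.024, highest without the third library labelled knockdown. That of the basement membrane members then ranged from 0.019 to 0.16. With all libraries, a limma fit on log2(FPKM + 0.1) gave an interstitial median of −0.16. ANXA2 stayed between −0.11 and −0.017.

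The replicate numbers showed no pairing of the libraries. Correlations of same-numbered deviations from the group means were −0.06, 0.12 and −0.20, and those of differently numbered ones ran from −0.23 to 0.22. With so few libraries these values cannot settle whether same-numbered libraries were handled together. With the replicate number as a block, 0 genes passed an adjusted p of 0.05 and 1076 had an unadjusted p under 0.05, against 1251 without it, the log2 fold change of ANXA2 was −0.05, and the medians were 0.07 and −0.11. Depth limits the members with few reads, such as FSTL1 with 90 and COL5A2 with 124 reads in all.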

Other observations

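Genes that make collagen competent for secretion were read beside the collagens themselves. Of 29 listed genes of collagen synthesis and secretion 27 were tested, 15 with a log2 fold change above 0 and 12 below, with a median of 0.01, and none passed an adjusted p of 0.05 (edgeR), nor had an unadjusted p under 0.05. ADAMTS3, a procollagen peptidase, had a log2 fold change of −0.44 (SE 0.205, adjusted p = 0.615, edgeR). CRTAP, a partner of the prolyl 3-hydroxylase complex, had 344, 312 and 325 CPM in the libraries labelled control and 364, 355 and 396 CPM in those labelled knockdown, which did not overlap (log2 fold change 0.18, SE 0.0857, adjusted p = 0.615, edgeR).

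All 16 listed genes of TGF-beta signalling, which induces many interstitial matrix genes, were tested, 6 with an estimate above 0 and 10 below, with a median of −0.10, and none passed or had an unadjusted p under 0.05. SMAD2, a receptor-activated transducer, had a log2 fold change of −0.25 (SE 0.139, adjusted p = 0.637, edgeR), and the ligand gene TGFB1 had 0.21 (SE 0.118, adjusted p = 0.646, edgeR).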
